A study of Rattus norvegicus with 14 samples.

Results

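Cultures of rat heart muscle cells were compared for 9 genes of extracellular matrix breakdown: the matrix metalloproteases Mmp2, Mmp3, Mmp9, Mmp11 and Mmp14, the related protease Adamts1, and the tissue inhibitors of metalloproteases Timp1, Timp2 and Timp3. They were chosen by symbol in the platform's probe table, and all 9 were found, with 16 probe sets, among 13184 measured genes. The brightest probe set of a gene stood for it, and the others are given where they differ. All cells were ventricular myocytes of Sprague-Dawley rat pups, 2 days old, pre-plated to deplete other cell types and cultured in serum-free medium before stimulation. JQ1 is a small molecule that displaces BET proteins from acetylated chromatin, DMSO is its vehicle, and phenylephrine (PE, 100 µM) activates alpha1-adrenergic receptors and enlarges such cells in culture. The groups were DMSO for 90 min without PE (n = 3), called unstimulated here, DMSO with PE, on 2 arrays at 6 h and 3 at 48 h, and JQ1 with PE, on 3 arrays at each of these times. JQ1 was never given without PE in these arrays, and the unstimulated cells also differ from the PE groups in time in culture. The concentration of JQ1 is not stated in these sources, and the labels disagree on whether JQ1 or PE was added first.

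Matrix metalloproteases are zinc enzymes that cut collagens, gelatin, proteoglycans and other matrix proteins. They are made as inactive precursors, most are secreted, and they activate one another: Mmp14, which is anchored in the cell membrane, activates the precursor of Mmp2 with the help of Timp2, and Mmp3 can activate the precursor of Mmp9. The TIMPs bind the active site and block it. Both sides of this balance take part in matrix remodelling of the overloaded heart, where fibroblasts are a major source. The arrays measure RNA and not enzyme activity.

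Values are log2 expression values, so a difference of 1 is a doubling. Each change is a log2 fold change ± SE from a limma fit over all 14 arrays, tested at an adjusted p of 0.05 (Benjamini-Hochberg, across the 13184 genes). A group mean below 6.23, the 30th percentile of genes, is called dim, and fold changes involving such a mean are uncertain in size. Arrays of a group correlated at 0.9976 to 0.9986 across probe sets. The labels do not say whether the arrays within a group hold RNA of independent cultures. The p-values thus reflect only how far these arrays spread, and that spread may be technical. Heart muscle markers were present, with 13 of 14 measured and 0 of them dim in any group. The fibroblast markers were also present, with 16 of 16 measured and 0 dim in the unstimulated cells. Endothelial markers were at lower levels, with 6 of 11 dim in the unstimulated cells, as were leukocyte markers, with 9 of 16 dim. Fibroblast markers were thus measured above the dim limit beside those of heart muscle, despite the pre-plating. In RNA from a whole culture, fewer cells of a type and less RNA per cell cannot be told apart.

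PE was read first, against the unstimulated cells. Of the 9 genes, 4 passed the threshold at 6 h, where 37.2% of all genes tested did. Of these 3 were higher, as were 18.3% of all genes, and 1 was lower, as were 18.9%. At 48 h 6 passed, where 44.1% of all genes did, 2 of them higher (21.4% of all genes) and 4 lower (22.6%). Between 6 h and 48 h of PE 5 changed, where 34.6% of all genes did, 1 of them higher (16.3% of all genes) and 4 lower (18.4%). The stromelysin gene Mmp3 and the inhibitor gene Timp1 rose at both times, while Mmp2 and Mmp14 were lower at 48 h. Both times were compared with the same unstimulated arrays.

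Mmp3 encodes stromelysin, which degrades proteoglycans and other non-fibrillar matrix. Its unstimulated arrays read 5.19, 5.15 and 5.04, those with DMSO and PE at 6 h 5.85 and 6.47, and those at 48 h 7.88, 7.39 and 7.29. The 3 groups did not overlap, and the first 2 were dim on average. Mmp3 rose by 1.03 ± 0.198 at 6 h (adjusted p = 0.00121) and by 2.39 ± 0.177, or 5.26-fold, at 48 h (adjusted p = 3.0e-07). Between 6 h and 48 h it gained 1.36 ± 0.198 (adjusted p = 1.9e-04).

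Timp1 encodes a secreted inhibitor of most matrix metalloproteases. It read 11.30, 11.35 and 11.38 in unstimulated cells, 12.32 and 12.37 at 6 h of PE, and 12.17, 12.08 and 12.17 at 48 h. Every PE array stood above every unstimulated one, and both 6 h arrays stood above those at 48 h. The rise was 1.01 ± 0.0496, or 2.01-fold, at 6 h (adjusted p = 1.6e-08) and 0.80 ± 0.0444 at 48 h (adjusted p = 2.4e-08). The drop from 6 h to 48 h was small (-0.21 ± 0.0496, adjusted p = 0.00614) and did not pass without DMSO with PE at 6 h replicate 2 (-0.18, adjusted p = 0.0542). So of the 2 genes that PE raised at both times, Mmp3 was higher at 48 h than at 6 h and Timp1 was lower.

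Sequences before the start site are shown for the 2 genes that PE raised at both times and for Adamts1, the gene JQ1 lowered most. Each runs 5′ to 3′ along the gene's strand, from 250 bases before the start to 50 bases after it, from RefSeq on the GRCr8 build. Capitals mark matches on either strand to TGANTCA, the element bound by AP-1 (FOS and JUN), and to TGAGTAA, a variant of it. They also mark AGGAAG, an ETS factor element, and TATAAA, the TATA box. The TGAGTAA variant was searched as the Timp1-type AP-1 element, so its match in Timp1 is not an independent finding.
Mmp3 (chr8:12925031-12925330, plus strand): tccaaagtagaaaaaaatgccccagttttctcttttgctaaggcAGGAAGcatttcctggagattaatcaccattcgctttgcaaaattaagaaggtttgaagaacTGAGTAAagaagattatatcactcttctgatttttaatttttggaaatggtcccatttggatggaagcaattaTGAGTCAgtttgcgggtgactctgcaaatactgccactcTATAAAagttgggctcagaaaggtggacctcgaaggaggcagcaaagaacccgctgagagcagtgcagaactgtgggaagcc
Timp1 (chrX:3771073-3771372, minus strand): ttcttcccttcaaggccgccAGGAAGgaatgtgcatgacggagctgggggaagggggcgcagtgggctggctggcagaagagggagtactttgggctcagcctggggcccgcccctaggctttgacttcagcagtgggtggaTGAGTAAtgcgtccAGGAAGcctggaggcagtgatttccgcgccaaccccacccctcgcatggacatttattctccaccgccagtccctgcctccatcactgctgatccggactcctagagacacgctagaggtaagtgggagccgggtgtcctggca
Adamts1 (chr11:38427335-38427634, minus strand): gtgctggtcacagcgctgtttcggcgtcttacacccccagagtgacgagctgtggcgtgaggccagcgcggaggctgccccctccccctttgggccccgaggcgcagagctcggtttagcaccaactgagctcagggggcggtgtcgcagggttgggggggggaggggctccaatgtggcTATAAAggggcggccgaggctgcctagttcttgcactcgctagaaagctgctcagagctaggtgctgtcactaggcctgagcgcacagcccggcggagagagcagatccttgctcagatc
The Mmp3 window held all 4 elements: TGAGTCA at -71 to -65 from the start, TGAGTAA at -144 to -138, AGGAAG at -206 to -201 and TATAAA at -32 to -27. The Timp1 window held TGAGTAA at -108 to -102 and AGGAAG at -230 to -225 and at -94 to -89, while that of Adamts1 held TATAAA at -70 to -65 and none of the others. Among all 33469 promoter windows of this length, 7.33% held TGANTCA, 2.90% TGAGTAA, 34.5% AGGAAG and 14.2% TATAAA. Promoter windows were found for 6 of the 9 genes, and those of Mmp11, Timp2 and Timp3 held 0 matches. Windows for Mmp2, Mmp9 and Mmp14 were not used here. A match is a string of letters and shows no binding.

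Adamts1, a secreted protease that cuts the proteoglycans versican and aggrecan, rose at 6 h of PE and not at 48 h. It read 10.06, 10.005 and 10.06 unstimulated, 10.41 and 10.35 at 6 h of PE, and 9.96, 9.94 and 9.90 at 48 h. Its rise at 6 h was 0.34 ± 0.0751 (adjusted p = 0.00331), and at 48 h it did not pass against unstimulated cells (-0.11 ± 0.0672, adjusted p = 0.230). From 6 h to 48 h it fell by 0.45 ± 0.0751 on the log2 scale (adjusted p = 5.8e-04).

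Mmp2, gelatinase A, and Mmp14, its membrane-bound activator, were both lower late with PE and did not pass early. Mmp2 read 12.43, 12.42 and 12.46 unstimulated, 12.41 and 12.49 at 6 h, and 12.15, 12.10 and 12.12 at 48 h. Mmp14 read 11.45, 11.53 and 11.66 unstimulated, 11.45 and 11.42 at 6 h, and 11.02, 11.07 and 11.14 at 48 h. For both genes the 48 h arrays stood below all arrays of the other DMSO groups. At 6 h neither passed (Mmp2 0.01 ± 0.0434, adjusted p = 0.836, and Mmp14 -0.11 ± 0.0573, adjusted p = 0.157). At 48 h Mmp2 was lower by -0.31 ± 0.0388 (adjusted p = 3.1e-05) and Mmp14 by -0.47 ± 0.0513 (adjusted p = 1.0e-05). The other probe set of Mmp14 gave -0.57 at 48 h (adjusted p = 4.3e-06 over all probe sets), whereas a dim second probe set of Mmp2 gave -0.20 (adjusted p = 0.108). Fibroblast markers moved in the same direction: 11 of 16 fell and 1 rose at 48 h of PE, with a median of -0.21 against 0.01 over all genes. So did leukocyte markers, of which 9 of 16 fell and 0 rose (median -0.26), and 7 of 13 heart muscle markers, of which 3 rose (median -0.12). Among all genes 22.6% were lower and 21.4% higher at 48 h of PE. The part of these cell type markers in the falls of Mmp2 and Mmp14 was not tested.

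Mmp9, gelatinase B, and Mmp11, a stromelysin that is activated inside the cell before secretion, did not pass at either time of PE. Mmp9 changed by 0.19 ± 0.139 at 6 h (adjusted p = 0.341) and 0.02 ± 0.124 at 48 h (adjusted p = 0.929). Mmp11 changed by -0.06 ± 0.0920 at 6 h (adjusted p = 0.687) and 0.09 ± 0.0823 at 48 h (adjusted p = 0.428). Their arrays overlapped between unstimulated and PE groups.

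Timp2 and Timp3 moved little with PE. Timp3, which binds to the matrix and also inhibits ADAM and ADAMTS proteases, read 10.94, 10.90 and 10.89 unstimulated, 10.70 and 10.80 at 6 h, and 10.81, 10.66 and 10.73 at 48 h. It was lower by -0.16 ± 0.0525 at 6 h (adjusted p = 0.0318) and by -0.18 ± 0.0469 at 48 h (adjusted p = 0.00809). Of its 3 other probe sets, 1 passed at 6 h (-0.28, adjusted p = 0.00636) and 0 passed at 48 h, where they gave -0.16, -0.01 and -0.11. Timp2, the partner of Mmp14, was lower at 48 h by -0.10 ± 0.0368 (adjusted p = 0.0472) and changed by -0.02 ± 0.0412 at 6 h (adjusted p = 0.774). Its second probe set gave -0.07 at 48 h and did not pass (adjusted p = 0.535 over all probe sets). Nor did its brightest probe set pass at 48 h when tested over all probe sets (adjusted p = 0.0664). The Timp3 call at 6 h ended without unstimulated replicate 1 (adjusted p = 0.0840) or 2 (adjusted p = 0.0613) or without DMSO with PE at 6 h replicate 1 (adjusted p = 0.249). The Timp2 call ended on leaving out any 1 of 11 of the 14 arrays (adjusted p of 0.0509 to 0.171).

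**Figure D1:**
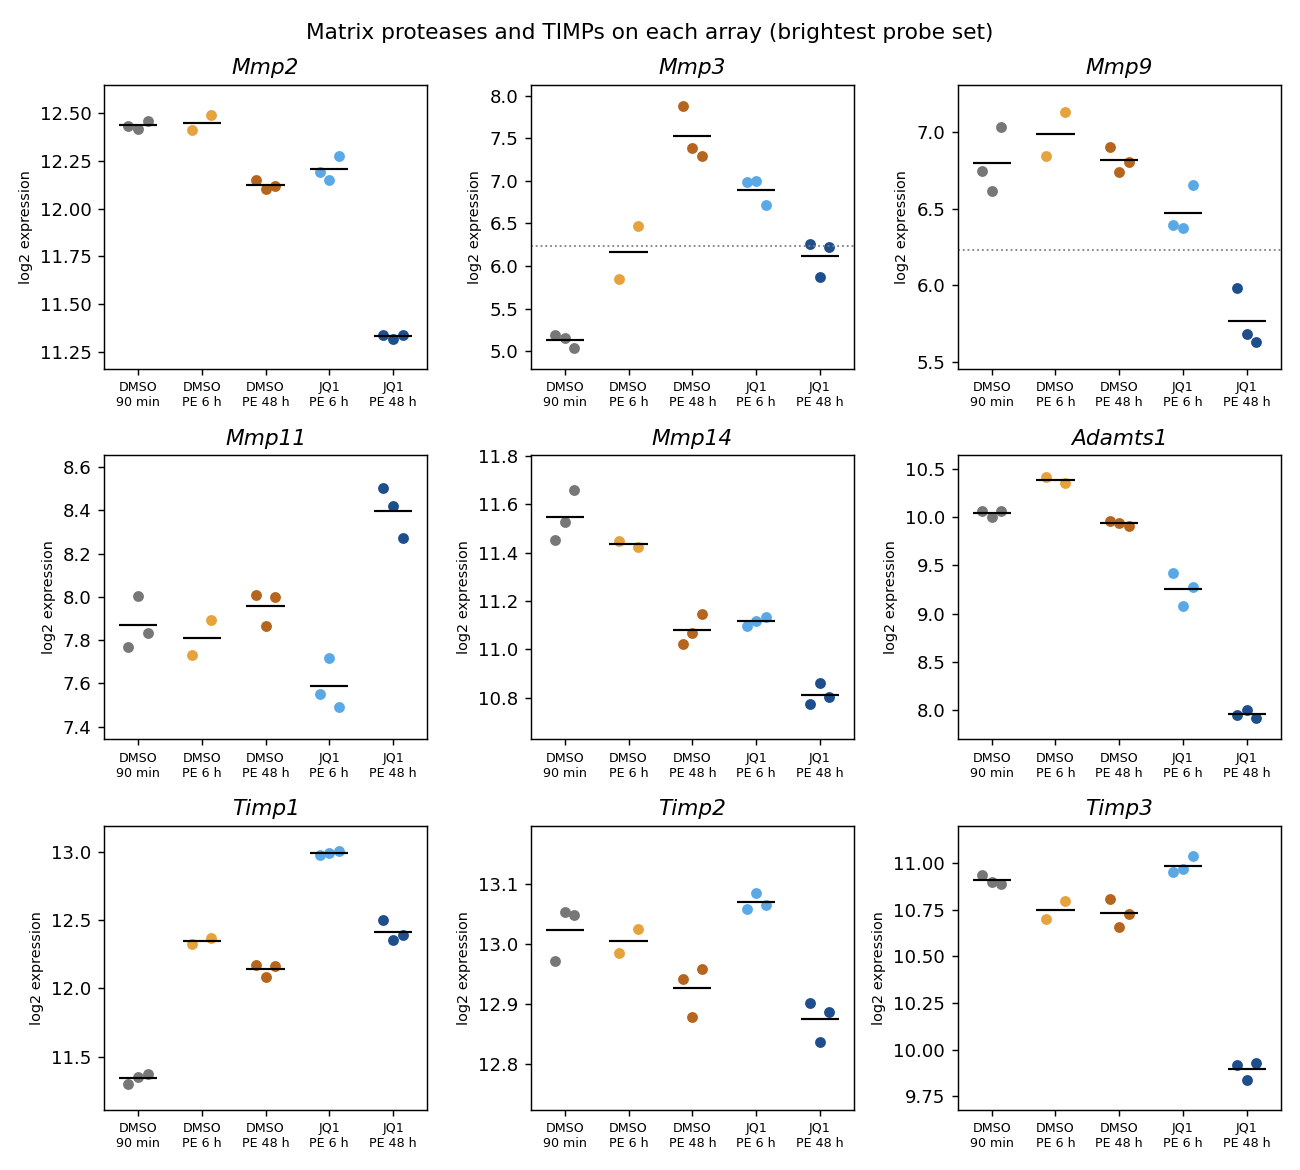
Log2 expression of the 9 genes on each of the 14 arrays, by group on the horizontal axis, with the brightest probe set, a horizontal bar at each group mean and a dotted line at the dim limit of 6.23 where it falls in range. Mmp3 and Timp1 were higher in every PE group than in unstimulated cells, and Adamts1, Mmp2, Mmp9, Mmp14 and Timp3 were lowest with JQ1 at 48 h. Timp2 also had its lowest mean there, with arrays that overlapped those of DMSO with PE at 48 h.

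JQ1 was then compared with DMSO in cells that both received PE. At 6 h 7 of the 9 genes passed, where 54.3% of all genes did, 3 of them higher (25.5% of all genes) and 4 lower (28.8%). At 48 h 8 passed, where 59.6% of all genes did, 2 of them higher (30% of all genes) and 6 lower (29.6%). The JQ1 effect differed between the times for 7 genes, where it did for 38.8% of all genes. It was more positive at 48 h for 1 gene (20.4% of all genes) and more negative for 6 (18.3%). The median change of the 9 genes was -0.23 at 6 h and -0.79 at 48 h, against 0.00 and 0.02 over all genes. The DMSO with PE arrays used here are the same as in the PE comparisons. Adamts1, Mmp2, Mmp9 and Mmp14 were lower at both times and Timp1 was higher at both. Mmp3 and Timp3 were higher at 6 h and lower at 48 h.

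Adamts1 was lowered most. With JQ1 it read 9.42, 9.07 and 9.27 at 6 h, against 10.41 and 10.35 with DMSO, and 7.95, 8.0 and 7.93 at 48 h, against 9.96, 9.94 and 9.90. The groups did not overlap at either time. The fall was -1.12 ± 0.0751, or 2.18-fold, at 6 h (adjusted p = 7.2e-08) and -1.97 ± 0.0672, or 3.93-fold, at 48 h (adjusted p = 7.4e-11). It was larger at 48 h by -0.85 ± 0.101 (adjusted p = 2.7e-05).

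Mmp2 read 12.19, 12.15 and 12.28 with JQ1 at 6 h and 11.34, 11.32 and 11.34 at 48 h, below the matched DMSO arrays at both times. It fell by 0.25 ± 0.0434 on the log2 scale at 6 h (adjusted p = 3.5e-04) and by 0.79 ± 0.0388 at 48 h (adjusted p = 2.1e-09), and the effects differed by -0.55 ± 0.0582 (adjusted p = 1.2e-05). These falls rest on the bright probe set. The second Mmp2 probe set, dim on average, gave -0.14 at 6 h (adjusted p = 0.318) and 0.06 at 48 h (adjusted p = 0.611). With both probe sets averaged, the difference between the times did not pass (-0.17, adjusted p = 0.129).

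Mmp14 read 11.10, 11.12 and 11.13 with JQ1 at 6 h and 10.77, 10.86 and 10.80 at 48 h. It was lower than with DMSO by -0.32 ± 0.0573 at 6 h (adjusted p = 3.9e-04) and -0.27 ± 0.0513 at 48 h (adjusted p = 5.4e-04). The difference between these effects was 0.05 ± 0.0769 and did not pass (adjusted p = 0.648). Its second probe set gave -0.30 and -0.21 and passed at both times (adjusted p = 0.00119 and 0.00618 over all probe sets).

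Mmp9 read 6.39, 6.38 and 6.65 with JQ1 at 6 h, against 6.84 and 7.13 with DMSO, and 5.99, 5.68 and 5.63 at 48 h, against 6.90, 6.74 and 6.80. The JQ1 arrays were the lower ones at both times, and at 48 h they were dim. Its fall was -0.51 ± 0.139 at 6 h (adjusted p = 0.00731) and -1.05 ± 0.124 at 48 h (adjusted p = 8.5e-06). Without DMSO with PE at 6 h replicate 2 the early fall was -0.37 (adjusted p = 0.0973), and the dim second probe set gave 0.02 at 6 h (adjusted p = 0.889) and -0.39 at 48 h (adjusted p = 0.00647).

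Mmp11 went the other way late. It read 7.55, 7.72 and 7.49 with JQ1 at 6 h, against 7.73 and 7.89 with DMSO, and 8.50, 8.42 and 8.27 at 48 h, against 8.01, 7.86 and 8.0. Every JQ1 array at 48 h stood above every other array of the gene. At 48 h it rose by 0.44 ± 0.0823 (adjusted p = 4.3e-04), and at 6 h its change of -0.23 ± 0.0920 did not pass (adjusted p = 0.0556). The difference between the times was 0.67 ± 0.123 (adjusted p = 8.9e-04). Among the 5 metalloproteases it was the gene higher with JQ1 at 48 h, and the other 4 were lower.

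Mmp3 changed sign with time under JQ1. It read 6.98, 7.0 and 6.71 with JQ1 at 6 h, against 5.85 and 6.47 with DMSO, and 6.26, 5.87 and 6.23 with JQ1 at 48 h, against 7.88, 7.39 and 7.29. The arrays did not overlap at either time. JQ1 raised it by 0.74 ± 0.198 at 6 h (adjusted p = 0.00673) and lowered it by -1.40 ± 0.177, or 2.65-fold, at 48 h (adjusted p = 1.5e-05), with a difference of -2.14 ± 0.265 between the times (adjusted p = 3.9e-05). The early rise rests on a dim DMSO group of 2 arrays: without replicate 1 of that group it was 0.43 (adjusted p = 0.121), and without replicate 2 it was 1.04 (adjusted p = 0.00155). The late fall and the difference between the times passed without any 1 array. Their sizes are uncertain, since the JQ1 group at 48 h was also dim on average (6.12).

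Timp1 stood higher still with JQ1. It read 12.98, 12.99 and 13.01 with JQ1 at 6 h and 12.50, 12.35 and 12.39 at 48 h, above all matched DMSO arrays. The rise was 0.65 ± 0.0496 at 6 h (adjusted p = 2.5e-07) and 0.27 ± 0.0444 at 48 h (adjusted p = 1.4e-04). It was smaller at 48 h by -0.37 ± 0.0665 (adjusted p = 7.0e-04).

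Timp2 read 13.06, 13.08 and 13.06 with JQ1 at 6 h and 12.90, 12.84 and 12.89 at 48 h, against 12.99 and 13.02 and against 12.94, 12.88 and 12.96 with DMSO. At 48 h the groups overlapped. It did not pass at either time of JQ1 (0.06 ± 0.0412 at 6 h, adjusted p = 0.216, and -0.05 ± 0.0368 at 48 h, adjusted p = 0.256). Its group means spanned 0.19 over the 5 groups, the smallest span of the 9 genes. With arrays centred on their medians the 6 h value passed (0.15, adjusted p = 0.00379).

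Timp3 rose early and fell late with JQ1. It read 10.95, 10.97 and 11.04 with JQ1 at 6 h and 9.92, 9.84 and 9.93 at 48 h. The early arrays stood above those with DMSO and the late arrays stood below every other array of the gene. The changes were 0.24 ± 0.0525 at 6 h (adjusted p = 0.00190) and -0.84 ± 0.0469 at 48 h (adjusted p = 7.3e-09), and they differed by -1.07 ± 0.0704 (adjusted p = 1.8e-07).

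The 4 probe sets of Timp3 differed in size but not in the sign of the JQ1 changes. At 6 h they gave 0.24, 0.18, 0.96 and 0.32 from the brightest to the dimmest, and all 4 passed. At 48 h they gave -0.84, -0.84, -0.69 and -0.05, and the dimmest did not pass (adjusted p = 0.544). The third-brightest, which had the largest early rise, read 8.90, 8.84 and 8.75 with JQ1 at 6 h, against 7.87 and 7.88 with DMSO. Whether the probe sets measure different transcript forms was not tested.

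**Figure D2:**
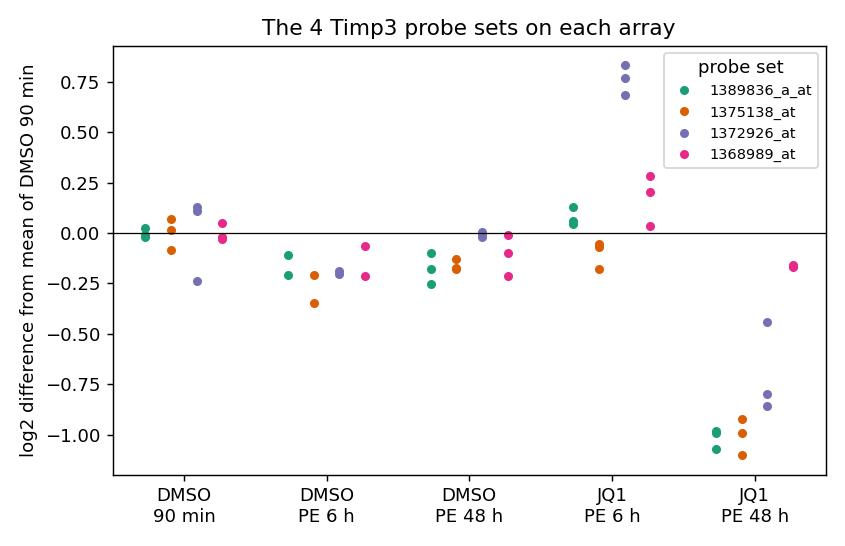
The 4 Timp3 probe sets, each point 1 array, as the log2 difference from that probe set's mean in unstimulated cells, by group. The third-brightest probe set stood furthest above the unstimulated level with JQ1 at 6 h, and the 3 brighter probe sets were lowest with JQ1 at 48 h.

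**Figure D3:**
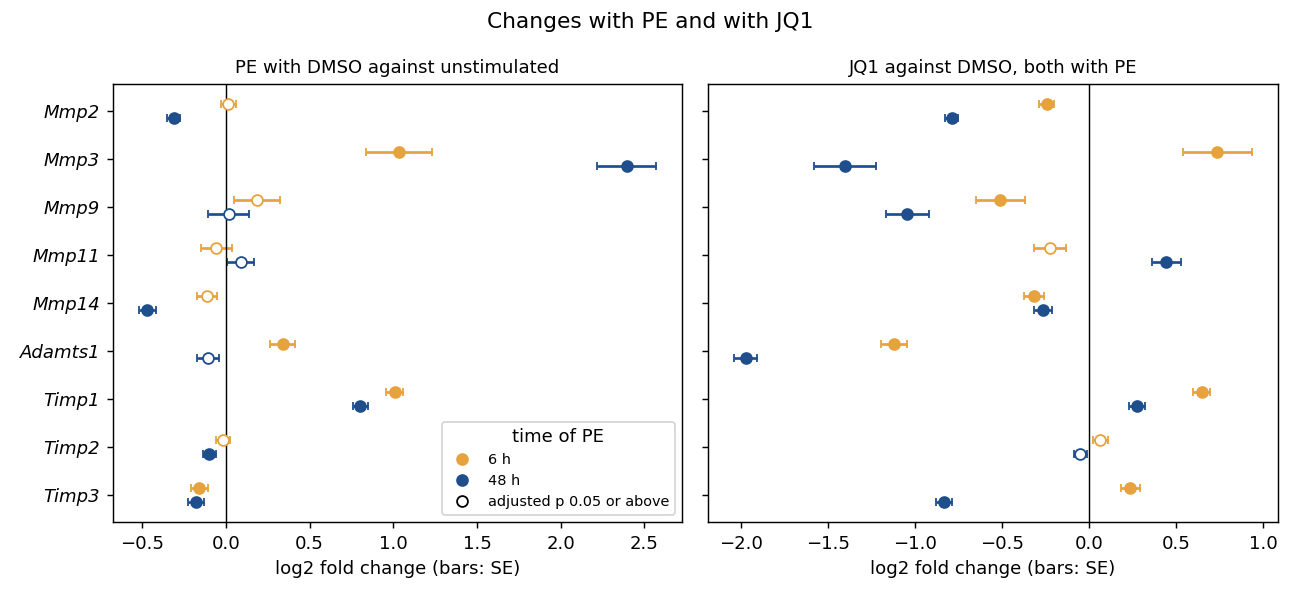
Log2 fold changes of the 9 genes with PE against unstimulated cells (left) and with JQ1 against DMSO, both with PE (right), at 6 h and 48 h. Bars are SE, filled points have an adjusted p below 0.05, and Mmp3 and Timp3 lie on opposite sides of 0 at the 2 times of JQ1.

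The JQ1 groups were also read against the unstimulated cells, to place each gene relative to its starting level. At 48 h all 9 genes passed, where 60.8% of all genes did, 3 of them higher (31.6% of all genes) and 6 lower (29.2%). At 6 h 7 of 9 passed, where 62.6% did, 2 of them higher (30.9% of all genes) and 5 lower (31.7%). With JQ1 at 48 h Mmp3 was still above the unstimulated level by 0.99 ± 0.177 (adjusted p = 3.1e-04), compared with 2.39 with DMSO. Its means with JQ1 at 48 h (6.12) and in unstimulated cells (5.13) were both dim. Timp1 was above it by 1.08 ± 0.0444 (adjusted p = 4.8e-10) and Mmp11 by 0.53 ± 0.0823 (adjusted p = 9.7e-05). Adamts1 was below it by -2.08 ± 0.0672, or 4.23-fold (adjusted p = 5.4e-11), Mmp2 by -1.10 ± 0.0388 (adjusted p = 1.2e-10), Mmp9 by -1.03 ± 0.124 (adjusted p = 1.1e-05) and Timp3 by -1.01 ± 0.0469 (adjusted p = 1.4e-09). Mmp14 was lower by -0.74 ± 0.0513 (adjusted p = 6.1e-08) and Timp2 by -0.15 ± 0.0368 (adjusted p = 0.00337, and adjusted p = 0.204 with arrays centred on their medians). The second probe set of Mmp14 gave -0.78 (adjusted p = 8.9e-08 over all probe sets), while that of Timp2 gave -0.04 and did not pass (adjusted p = 0.681).

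The order of the groups differed between the genes. Adamts1 was highest with DMSO and PE at 6 h, followed by unstimulated cells, DMSO with PE at 48 h, JQ1 at 6 h and JQ1 at 48 h, and no neighbours in this order overlapped. For Mmp2 the order was similar, but the 2 highest groups, DMSO with PE at 6 h and unstimulated, overlapped, and so did JQ1 at 6 h and DMSO with PE at 48 h. Timp1 ran from JQ1 at 6 h through JQ1 at 48 h and both DMSO with PE groups down to unstimulated cells, and only JQ1 at 48 h and DMSO with PE at 6 h overlapped. Mmp3 was highest with DMSO and PE at 48 h, then with JQ1 at 6 h, and its DMSO with PE at 6 h and JQ1 at 48 h arrays overlapped above the unstimulated ones.

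Other genes of matrix proteolysis were taken from 3 lists. Their counts are to be read against the shares of all genes past the threshold. With PE at 6 h 18.3% of all genes were higher and 18.9% lower. With JQ1 25.5% were higher and 28.8% lower at 6 h, and 30% were higher and 29.6% lower at 48 h. Of 12 measured further MMP genes, 2 rose and 6 fell with JQ1 at 48 h, and 1 rose and 1 fell with PE at 6 h. Mmp15, a membrane-type metalloprotease, fell 2.37-fold with PE at 6 h (adjusted p = 3.1e-07) and rose by 0.82 ± 0.0782 with JQ1 at 48 h (adjusted p = 1.0e-06). At 48 h of JQ1 Mmp23 fell 4.57-fold (-2.19 ± 0.0578, adjusted p = 9.5e-12) and the macrophage elastase gene Mmp12 2.62-fold (-1.39 ± 0.0820, adjusted p = 1.2e-08), and Mmp24 rose (0.55 ± 0.0434, adjusted p = 1.7e-07). The list's median at 48 h of JQ1 was -0.16.

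Of 23 measured further ADAM and ADAMTS genes, 6 rose and 13 fell with JQ1 at 6 h, with a median of -0.25, and 4 rose and 12 fell at 48 h, with a median of -0.15. Adamts19 rose 3.42-fold with PE at 48 h (1.77 ± 0.0840, adjusted p = 6.5e-09) and fell 7.34-fold with JQ1 at 48 h to a dim level (-2.88 ± 0.0840, adjusted p = 2.0e-11). Adamts9, like Adamts1 an aggrecanase, rose with PE at 6 h (0.75 ± 0.0549, adjusted p = 4.5e-07). Unlike Adamts1 it rose with JQ1, by 1.08 ± 0.0549 at 6 h (adjusted p = 6.5e-09) and 0.50 ± 0.0491 at 48 h (adjusted p = 1.5e-06). Adamts7 and Adamts8 fell with JQ1 at 6 h, by -1.12 ± 0.0747 (adjusted p = 7.2e-08) and -1.26 ± 0.146 (adjusted p = 9.8e-06).

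Among 30 measured inhibitors and activators of matrix proteases, 10 rose and 2 fell with PE at 6 h, with a median of 0.08, and 6 rose and 17 fell with JQ1 at 48 h, with a median of -0.34. The largest rises with PE at 6 h were Serpinb2, an inhibitor of plasminogen activators (1.40 ± 0.157, adjusted p = 1.9e-05), and Tfpi2, an inhibitor of serine proteases including plasmin (1.38 ± 0.165, adjusted p = 3.2e-05). Plaur, the receptor that holds urokinase at the cell surface, fell with JQ1 by -0.63 ± 0.0985 at 6 h (adjusted p = 1.3e-04) and by -1.92 ± 0.0881, to a dim level, at 48 h (adjusted p = 1.2e-09). Plat, the tissue plasminogen activator, rose with JQ1 at 6 h (0.70 ± 0.0383, adjusted p = 1.3e-08). At 48 h Serpinb2 fell with JQ1 (-1.44 ± 0.140, adjusted p = 1.4e-06).

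Most fibroblast markers fell under JQ1, while of the 9 genes 3 were higher and 4 lower at 6 h, and 2 higher and 6 lower at 48 h. At 6 h 11 of 16 markers fell and 0 rose, with a median of -0.26, and at 48 h 14 of 16 fell and 1 rose, with a median of -1.29. Over all genes 28.8% were lower at 6 h and 29.6% at 48 h. Mfap5, a microfibril protein, fell by 2.89 ± 0.0765 on the log2 scale at 48 h (adjusted p = 9.8e-12) and Fbln2, a fibulin, by 2.13 ± 0.0554 (adjusted p = 8.7e-12), while Fn1, fibronectin, rose (0.23 ± 0.0427, adjusted p = 3.8e-04). The summed level of the fibroblast list, in log2, ran from 16.17 to 16.17 on the DMSO with PE arrays and from 15.61 to 15.64 on the JQ1 arrays at 48 h. At 6 h these ranges were 16.31 to 16.32 and 16.18 to 16.18. The part of these markers in the falls of Adamts1, Mmp2, Mmp9, Mmp14 and Timp3 was not tested.

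Markers of the other cell types also moved. At 6 h of JQ1 8 of 12 smooth muscle and pericyte markers fell and 3 rose, with a median of -0.54, further below 0 than that of the fibroblast list. At 48 h 9 fell and 1 rose, with a median of -0.68 (summed level 14.26 to 14.32 against 14.50 to 14.53 with DMSO). The 1 that rose was Des, with a mean of 13.25 with JQ1 and 12.96 with DMSO. At this level Des weighs heavily in the summed level, which thus shows less of the fall of the other markers. Of 13 heart muscle markers, 6 fell and 1 rose at 6 h (median -0.12), and 8 fell and 3 rose at 48 h (median -0.27, summed level 17.01 to 17.05 against 17.27 to 17.28). Endothelial markers fell in 4 of 11 and rose in 2 at 6 h, and fell in 6 and rose in 1 at 48 h (median -0.24, summed level 10.06 to 10.10 against 10.50 to 10.60, 7 of 11 dim with JQ1). Of 16 leukocyte markers 5 fell and 1 rose at 6 h, and 5 fell and 0 rose at 48 h, where 11 did not pass (median -0.14, summed level 10.20 to 10.31 against 10.71 to 10.79, 10 of 16 dim with JQ1). The 5 of 16 leukocyte markers that were lower at each time are near the shares of all genes. The endothelial 4 of 11 at 6 h are little above that share. The part of all these markers in the results was not tested.

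**Figure D4:**
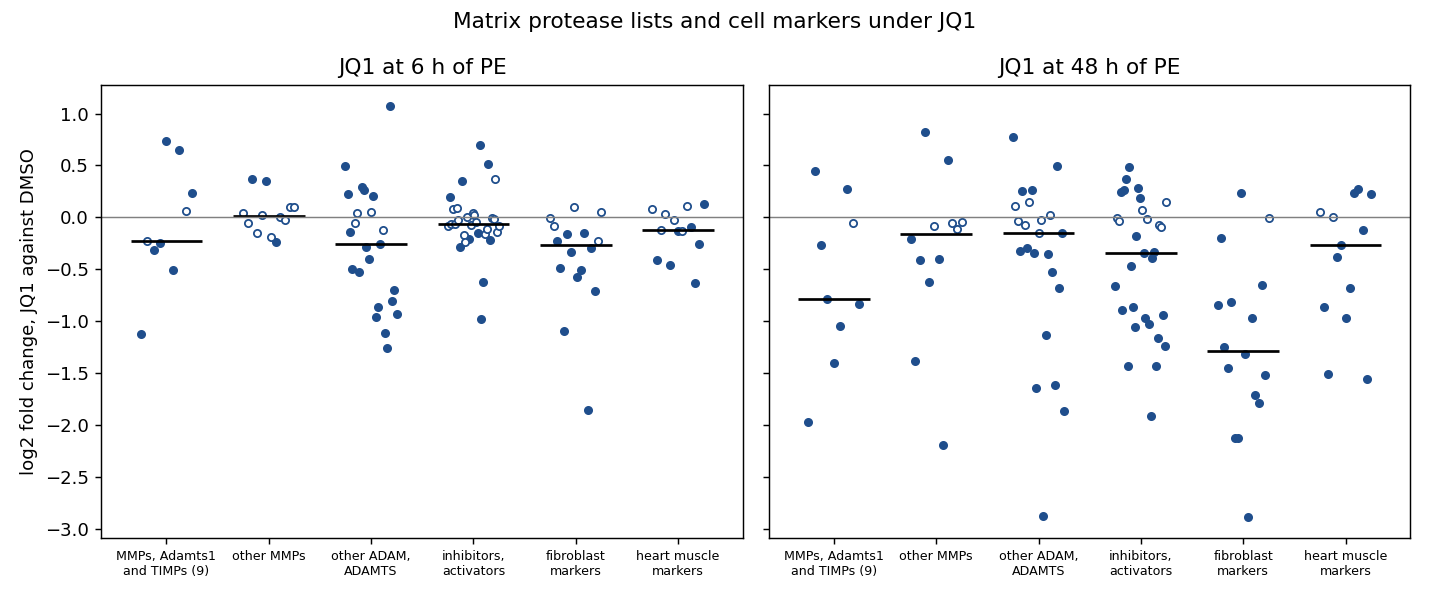
Log2 fold changes with JQ1 against DMSO at 6 h (left) and 48 h (right) of PE for the 9 genes, 3 lists of related genes, fibroblast markers and heart muscle markers. Each point is a gene, filled where its adjusted p was below 0.05, and bars are medians, which at 48 h were -0.79 for the 9 genes, -1.29 for fibroblast markers and -0.27 for heart muscle markers.

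The genes whose levels followed each member most closely over the 14 arrays were taken by Pearson correlation among 5302 genes that were not dim and varied by at least 0.5 between groups. These correlations describe arrays that share treatments and are given without a test. Mmp2 was closest to Cpxm1 (r = 0.993) and to Mfap5 (r = 0.992), Timp3 to the lysyl oxidase gene Lox (r = 0.986) and Arpc1b (r = 0.978), and Mmp14 to Ccdc167 (r = 0.988) and Tspan4 (r = 0.987). Adamts1 was closest to Slc30a3 (r = 0.993) and Gbp7 (r = 0.993), and Mmp9 to Tmc6 (r = 0.969) and again Slc30a3 (r = 0.963). Timp1 lay closest to B3gnt2 (r = 0.994) and Rhpn2 (r = 0.987), Mmp3 to Azin1 (r = 0.952) and S100a6 (r = 0.951), Mmp11 to Lamtor4 (r = 0.962) and Fam120b (r = 0.958), and Timp2 to Aard (r = 0.950) and Cdo1 (r = 0.942).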

How the data were processed

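Per the labels, biotin-labelled RNA was measured on Affymetrix rat arrays. The deposited table gives 1 log2 value for each probe set and array (20223 probe sets, 14 arrays, array medians 7.28 to 7.43). The nearly equal distributions are the basis for taking the values as normalized by the authors. How they were summarized and normalized is not given in the sources used here. In their processing notes the submitters list limma but not what it did. Where these steps compress low signals, changes of dim genes are understated.

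Probe sets were named from the platform annotation, with symbols updated through the GRCr8 RefSeq gene table: 18510 had 1 symbol, 305 several and 1402 none, and 6 controls were left out. The brightest probe set by mean stood for each of 13184 genes. All arrays entered 1 fit with a mean per group (limma 3.58.1 in R 4.3.3, lmFit and eBayes, 9 residual degrees of freedom), tested two-sided. Known changes put into simulated data were used to test the script. The number of arrays limits the precision.

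The members and lists were chosen with earlier results of these data known. Named list genes are up to 2 rising and 2 falling with the largest change per comparison among those past the threshold. For each member the 2 most alike genes are named. Alternatives were quantile normalization, median centring, averaging or changing probe sets, leaving out dim genes, fitting the compared groups only, a variance trend, a replicate block and leaving out each array. No sample was left out.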

Additional observations from a re-analysis of the deposited data

Results flagged for a closer look

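The JQ1 effect differed between 48 h and 6 h of PE, by the limma test of that difference over all 13184 genes, for 7 of the 9 genes, where 38.8% of all genes differed. The difference in log2 fold change was -2.14 for Mmp3, whose arrays moved up at 6 h and down at 48 h, and -1.07 for Timp3, which did the same. It was -0.85 for Adamts1, -0.55 for Mmp2 and -0.54 for Mmp9, which were lower at both times and more so at 48 h. For Timp1, higher at both times, it was -0.37, and for Mmp11 it was 0.67. The Mmp9 difference (adjusted p = 0.0380) ended on leaving out any 1 of 6 arrays: DMSO with PE at 6 h replicate 1 (-0.39, adjusted p = 0.171), JQ1 with PE at 6 h replicate 3 (-0.45, adjusted p = 0.0870), DMSO with PE at 48 h replicates 1 (adjusted p = 0.0798) and 3 (adjusted p = 0.0607), and JQ1 with PE at 48 h replicates 2 (adjusted p = 0.0768) and 3 (adjusted p = 0.0839). On its dim second probe set the Mmp9 difference was -0.41 (adjusted p = 0.0609), and on that of Mmp2 it was 0.20 (adjusted p = 0.322).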

How the results depend on the processing

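Counts of genes and of members past the threshold stayed within 1.5 times the reported count under every alternative run. Leaving out 1 array gave 3 to 4 members for PE at 6 h, 5 to 6 at 48 h, 4 to 5 for late against early PE, 6 to 8 for JQ1 at 6 h, 8 to 8 for JQ1 at 48 h and 6 to 7 for the difference between them. Of 1008 member values with an array left out, 27 lost the call and 5 gained it. Of 504 under the other settings, 15 lost and 8 gained it. Among values that passed as reported, 0 turned sign in either set, and among those that did not pass, 9 of 266 and 2 of 133 did. Of 56 values on another probe set, 15 lost the call with the sign kept, 4 more turned sign and lost it, and 2 gained it. There 5 of 18 values that did not pass turned sign, and 4 of 38 that passed did, the latter on dim probe sets: Mmp2 for JQ1 at 48 h (0.063) and for the difference of JQ1 effects (0.20), and Mmp9 for JQ1 at 6 h (0.024) and for JQ1 with PE at 6 h against unstimulated cells (0.19). The Mmp9 call against unstimulated cells at 6 h (-0.32) also ended without unstimulated replicate 1 or 3 or JQ1 with PE at 6 h replicate 1 or 2 (adjusted p of 0.0570 to 0.170) and on centring arrays on their medians (-0.24, adjusted p = 0.104). Centring raised the share of calls that were higher with JQ1 from 47.0% to 60.1% at 6 h and from 50.4% to 62.3% at 48 h, and shifted the median of all genes by 0.10 for JQ1 with PE at 48 h against unstimulated cells (share 52.0% to 65.5%) and by 0.09 at 6 h (49.3% to 61.2%). Same-numbered arrays of different groups did not deviate together (r of -0.27 to 0.18 over 26 pairs), so the numbers were not taken as pairs. With a replicate block 3 members passed for PE at 6 h (4554 genes) and 5 at 48 h (5606 genes), since Timp3 (adjusted p = 0.0636) and Timp2 (adjusted p = 0.0693) lost their calls, and the block also ended the Mmp9 difference of JQ1 effects (adjusted p = 0.0675). The causes were not tested. Signal over background limits Mmp3 and Mmp9, dim in some groups.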
